A study of Homo sapiens with 6 samples.

Results

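The BCL2 family of apoptosis regulators was followed in HCT116 cells, a human colorectal carcinoma line, with and without METTL3, the catalytic subunit of the enzyme that places N6-methyladenosine (m6A) on mRNA. The members were chosen by symbol, as the 10 genes BCL2, BCL2L1, BCL2L2, MCL1, BAK1, BID, BCL2L11, BAD, BIK and BMF among the 56638 symbols of the deposited RNA-seq counts. The series holds 3 wild-type (WT) samples and 3 with METTL3 knocked out (METTL3-KO). The METTL3-KO cells came from 1 monoclonal line, made with lentiviral CRISPR-Cas9 and kept after puromycin selection, whereas the WT samples are described only as wild type, so effects of the clone and of the knockout cannot be told apart. The deposited data name the groups otherwise, as NC and SiM3, with no explanation in the sources used here, and number the WT samples 1, 3 and 4. Groups and replicate numbers follow the sample labels, and every METTL3-KO value rests on them. Nothing in the labels says that the samples of a group came from separate cultures, and the p-values therefore measure the spread between these samples, which may be technical.

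BCL2 family proteins decide whether the outer membrane of the mitochondrion is breached, the step that releases cytochrome c and starts the caspase cascade. Anti-apoptotic members (BCL2, BCL2L1, BCL2L2 and MCL1) hold their partners in a hydrophobic groove, the effector BAK1 forms the pores, and the BH3-only proteins (BID, BCL2L11, BAD, BIK and BMF) either fill the groove of the anti-apoptotic members or act on the effectors. The contact runs through a short helix, the BH3 motif, which the anti-apoptotic members and BAK1 also carry. In colorectal tumour cells BCL2L1 and MCL1 are widely studied survival factors.

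The coding bases of this helix are shown because all 10 members carry the motif, and the helix of a partner fills the groove of the anti-apoptotic members. In each annotated main transcript, the translated reading frame was searched for leucine or methionine followed 4 residues later by glycine, alanine or serine and then aspartate. From each match on, 9 codons are printed 5′ to 3′ on the strand of the gene (genome build GRCh37), all within a single coding exon. The capitals mark codons 1, 5 and 6, which the search fixed.
BCL2 (chr18:60985585-60985611, minus strand): CTCcgccaggccGGCGACgacttctcc
BCL2L1 (chr20:30309728-30309754, minus strand): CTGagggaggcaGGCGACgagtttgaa
BCL2L2 (chr14:23777112-23777138, plus strand): ATGcgggcagctGGAGATgagttcgag
MCL1 (chr1:150551344-150551370, minus strand): TTAcgacgggttGGGGATggcgtgcag
BAK1 (chr6:33543167-33543193, minus strand): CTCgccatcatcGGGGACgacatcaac
BID (chr22:18222184-18222210, minus strand): CTCgcccaggtcGGGGACagcatggac
BCL2L11 (chr2:111907680-111907706, plus strand): TTGcggcgtattGGAGACgagtttaac
BAD (chr11:64039097-64039123, minus strand): CTCcggaggatgAGTGACgagtttgtg
BIK (chr22:43523722-43523748, plus strand): CTGgcctgcatcGGGGACgagatggac
BMF (chr15:40396399-40396425, minus strand): CTTcagtgcattGCAGACcagttccac

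The pattern had 1 match in each protein except BID, where it had 2 and the one with glycine is shown. Codon 5 was a glycine codon in 8 members, AGT for serine in BAD and GCA for alanine in BMF. Codon 6, the aspartate, was GAC in 8 members and GAT in BCL2L2 and MCL1. Of the 27 bases, BAK1 and BIK had 21 in common, the most of any pair, and BCL2L2 and BID had 9, the fewest. The motif began at codon 46 of 193 in BCL2L2 and at codon 152 of 198 in BCL2L11, so it lies early in the one protein and late in the other.

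The libraries held 20936091 to 30142144 counts on genes, and levels are given as CPM, the usual scaling of counts to library size, here with sizes scaled by the trimmed mean of M values (TMM). METTL3 itself was at 30.6, 30.2 and 29.2 CPM in the WT samples and at 7.26, 7.69 and 6.89 CPM after knockout. Its log2 fold change was -2.04 ± 0.089 (SE, n = 3 per group) with an adjusted p of 3.27e-07, from the quasi-likelihood test of edgeR with adjustment after Benjamini and Hochberg, the test used throughout. METTL3 mRNA was thus lower in every METTL3-KO sample but still present, and its level does not show by which means it was lowered. All 7 epithelial markers exceeded 1 CPM, with a summed level of 6721 to 8261 CPM in WT samples and 9287 to 10408 CPM in METTL3-KO samples. Of 7 markers of blood, endothelial and fibroblast cells, only COL1A1 exceeded 1 CPM, and PECAM1 and COL1A2 were at 0. Replicate 3 of each group stood apart from replicates 1 and 2, since its chi-square, averaged over genes, was 25.4 and 25.0 against WT replicates 1 and 2 and 12.3 and 8.97 against METTL3-KO replicates 1 and 2. Replicates 1 and 2 differed from each other by 2.72 in WT and 2.46 in METTL3-KO. The deviations of WT replicate 3 from its group ran with transcript length across genes (Pearson r = 0.627), and those of METTL3-KO replicate 3 ran the other way (r = -0.567), as a description over genes that share a library. Replicates 1 and 2 had r of -0.563 and -0.519 in WT and 0.469 and 0.373 in METTL3-KO. A correction for transcript length and GC content, fitted over all libraries, gave BAD log2 offsets of 0.170, 0.132 and -0.217 in WT and -0.117, -0.114 and 0.146 in METTL3-KO. Those of every other member were smaller in size. With replicate 3 of both groups left out, this offset and the group cannot be told apart for BAD. The same held for BIK, BAK1, BID, BCL2L1 and BCL2L2, with smaller offsets.

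All members but BCL2 had over 3 counts in every library, and their levels were compared per kilobase of the longest transcript. In WT cells BCL2L1 stood highest at 104.4 ± 6.91 CPM per kb (SD, n = 3), followed by MCL1 at 65.4 ± 3.38. A wide step led down to BID at 19.0 ± 1.997 and BAK1 at 16.6 ± 2.43 CPM per kb, whose ranges overlapped. BCL2L2 at 10.6 ± 0.346, BMF at 8.93 ± 0.803 and BAD at 7.62 ± 2.33 CPM per kb formed the middle, with overlapping ranges for BMF and BAD. BCL2L11 at 3.98 ± 0.420 and BIK at 1.95 ± 0.467 CPM per kb were the lowest of the detected members. The abundant anti-apoptotic pair BCL2L1 and MCL1 therefore made up 93.3% to 94.3% of the summed anti-apoptotic level in every one of the 6 samples. In METTL3-KO cells the order was the same from BCL2L1 down to BCL2L2, and BAD at 6.31 ± 1.00 and BMF at 6.28 ± 0.394 CPM per kb could not be separated. When the level was taken per kilobase of all exons joined, BAK1 at 16.6 CPM per kb came before BID at 10.7 in WT cells.

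**Figure D1:**
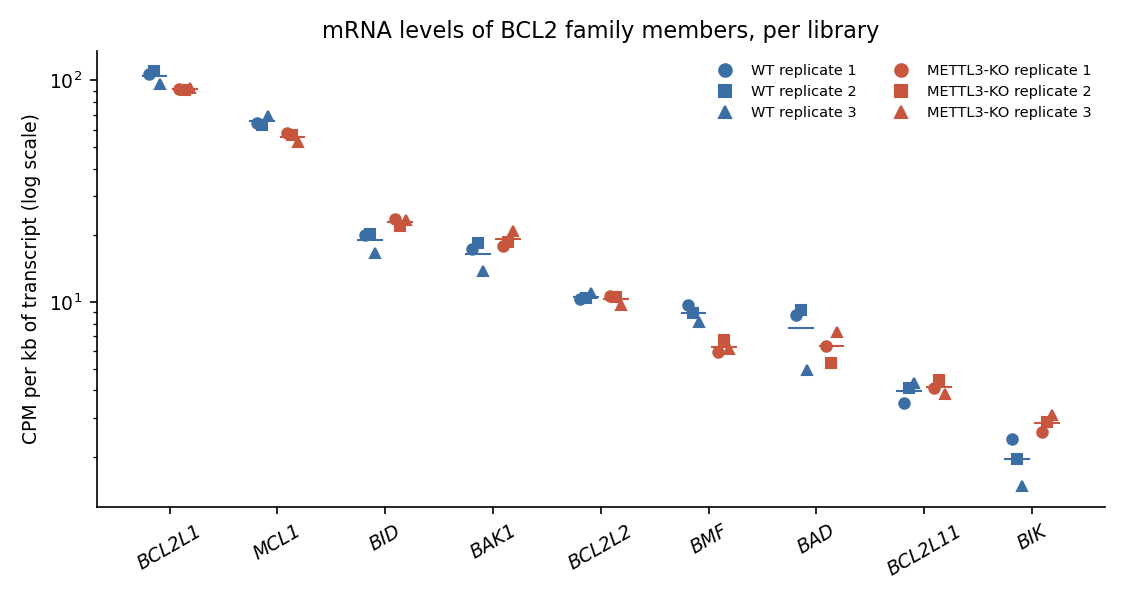
Levels of 9 BCL2 family members in each sample, in CPM per kb of the longest transcript on a log axis, with WT and METTL3-KO samples as separate points and the group means as bars. BCL2L1 and MCL1 lie well above all pro-apoptotic members in both groups. These do not include BAX, which was at 68.7 to 89.0 CPM per kb in WT samples and 67.7 to 75.1 in METTL3-KO samples. BCL2, with 0 to 3 counts per library, is not plotted.

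Between the groups, 2 of the 10 members, MCL1 and BMF, fell in METTL3-KO cells, 1 member, BID, rose, and 7 did not pass the test. Among all 22452 genes tested, 13.4% were lower and 13.4% were higher at the same threshold (adjusted p under 0.05), so the members' counts lay close to the shares among all genes. Among the 12583 genes at or above the mean CPM of BIK, the lowest of the detected members, 20.3% were lower and 19.3% higher. Without replicate 3 of both groups, 4 members were lower (BCL2L1, MCL1, BAD and BMF) and 1 higher (BID), beside 22.6% and 21.5% of all genes tested. Corrected for length and GC content, 3 were lower (BCL2L1, MCL1 and BMF) and 3 higher (BAK1, BID and BIK), beside 17.1% and 17.3%. DESeq2 gave 2 lower and 1 higher, the same 3 genes, beside 15.3% and 16.5%. A replicate block left 1 lower (BMF) and 0 were higher, beside 7.05% and 7.54%. At the level of the samples, 3 members were lower in every METTL3-KO sample than in every WT sample (BCL2L1, MCL1 and BMF) and 2 were higher in every one (BID and BIK), where 20.7% and 20.2% of all genes tested showed such separation. The libraries are bulk RNA, in which fewer cells of a kind and less RNA per cell cannot be told apart.

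BCL2, the founding member (chr18:60790579-60987361, minus strand), was near absent, although all 10 members passed the filter of 5 counts in at least 1 group. The WT libraries held 3, 2 and 1 counts and the METTL3-KO libraries 1, 0 and 3, which makes 6 of 71422972 and 4 of 75722866 counts on genes. No library exceeded the 3 counts that a count of 0 allows, equal to 0.0995 to 0.141 CPM, so no fold change is given for BCL2 and a difference was not detectable at this depth.

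BCL2L1 encodes BCL-XL from its long splice form and a pro-apoptotic protein from its short form, which counts per gene do not separate (chr20:30252255-30311792, minus strand). Its level was 347.8, 357.4 and 314.6 CPM in WT samples and 297.0, 294.8 and 301.5 CPM in METTL3-KO samples. All METTL3-KO samples were below all WT samples, with a mean change of -12.4%. The log2 fold change of -0.19 ± 0.070 (SE) had an adjusted p of 0.0648 and did not pass. WT replicate 3 lay nearest to the METTL3-KO samples, and without it the value was -0.24 with an adjusted p of 0.00297. A lncRNA on the opposite strand, ABALON, shares 41.3% of the BCL2L1 exon bases, and the strand setting of the counting is not given in the sources used here. The counts hold no symbol ABALON and the library kit does not mark strand, so the BCL2L1 values may include reads of this lncRNA.

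MCL1, a short-lived protein that holds BAK1 and BCL2L11 (chr1:150533371-150552214, minus strand), was at 291.3, 286.5 and 315.3 CPM in WT samples and at 264.3, 257.5 and 240.4 CPM in METTL3-KO samples. The groups did not overlap, and the mean went from 297.7 ± 15.4 to 254.1 ± 12.3 CPM (SD, n = 3). MCL1 fell by 14.6%, with a log2 fold change of -0.23 ± 0.071 (SE) and an adjusted p of 0.0337. The call was lost when WT replicate 1 (adjusted p = 0.0755), WT replicate 2 (0.0640), METTL3-KO replicate 1 (0.0727), METTL3-KO replicate 2 (0.103) or METTL3-KO replicate 3 (0.120) was left out, with log2 fold changes of -0.25 to -0.19. With replicate 3 of both groups left out it passed at -0.15 (adjusted p = 0.00202).

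BCL2L2, which encodes BCL-W (chr14:23767999-23780960, plus strand), had 37.0, 37.0 and 39.2 CPM in WT samples and 38.0, 37.6 and 34.8 CPM in METTL3-KO samples. These ranges overlapped. The log2 fold change was -0.035 ± 0.076 (SE), with a 95% interval from -0.18 to 0.11 and an adjusted p of 0.771, and its sign turned without METTL3-KO replicate 3 (0.0063). The readthrough gene BCL2L2-PABPN1 covers 16.8% of its exon bases on the same strand, and read pairs there could not be assigned to BCL2L2.

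The 4 anti-apoptotic members had a median log2 fold change of -0.21, or -0.19 without BCL2, beside -0.021 for all genes tested. Of them MCL1 fell and the other three did not pass. The 6 pro-apoptotic members had a median of 0.13, with BID higher, BMF lower and 4 that did not pass.

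**Figure D2:**
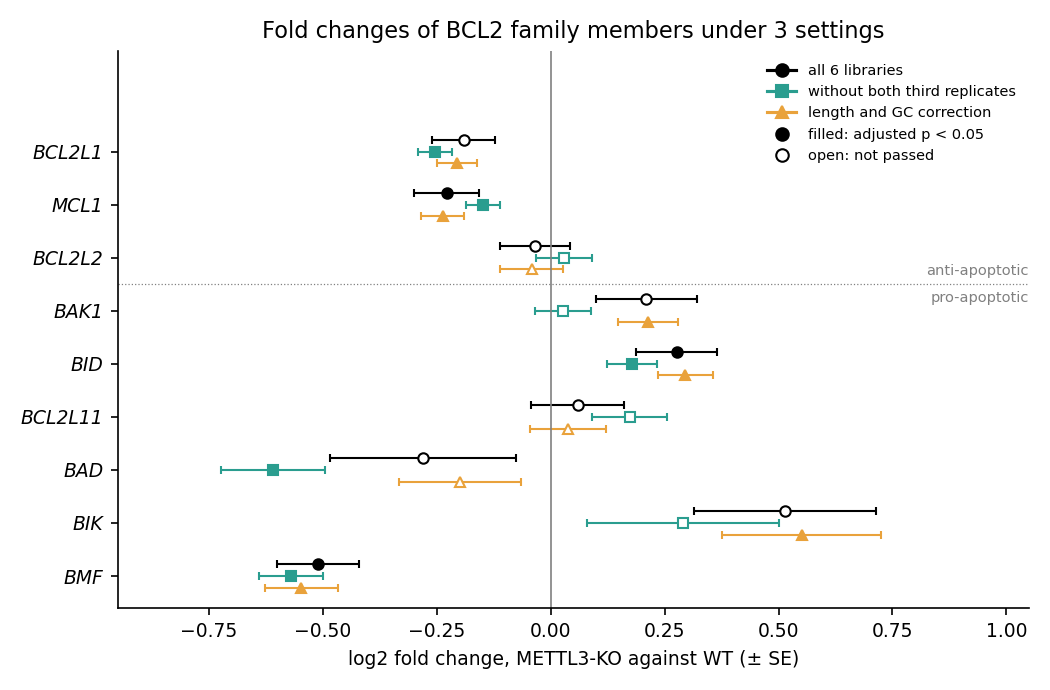
Log2 fold change of METTL3-KO against WT (horizontal axis, bars are standard errors) for 9 members with all 6 libraries (circles), without replicate 3 of both groups (squares) and after a correction for length and GC content of the transcripts (triangles). Filled symbols passed at an adjusted p under 0.05. MCL1, BID and BMF are filled in all 3 settings, and BAD moves from -0.28 to -0.61 when replicate 3 of both groups is left out. In settings not plotted, the replicate block and most fits without a single library, MCL1 and BID did not pass, whereas BMF did.

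BAK1, the pore-forming effector (chr6:33540324-33548070, minus strand), was at 38.4, 40.8 and 30.6 CPM in WT samples and at 39.8, 41.1 and 46.4 CPM in METTL3-KO samples. WT replicate 3 was the lowest and METTL3-KO replicate 3 the highest of the 6, and the other four samples lay between 38.4 and 41.1 CPM. The log2 fold change of 0.21 ± 0.11 (SE) did not pass (adjusted p = 0.187), and without replicate 3 of both groups it was 0.027 (adjusted p = 0.756). Corrected for length and GC content of the transcripts, it was 0.21 with an adjusted p of 0.0255.

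BID, which caspase-8 cleaves into an active fragment and which so joins the death receptor arm to the mitochondrion (chr22:18216904-18257536, minus strand), was the one member that rose. It was at 50.2, 50.5 and 41.7 CPM in WT samples and at 59.0, 54.9 and 58.7 CPM in METTL3-KO samples. No METTL3-KO sample came down to the WT range, and the mean rose by 21.1%, from 47.5 ± 4.98 to 57.5 ± 2.30 CPM (SD, n = 3). The log2 fold change was 0.28 ± 0.088 (SE) with an adjusted p of 0.0385. The call was lost without WT replicate 1 (adjusted p = 0.0542), METTL3-KO replicate 1 (0.121), METTL3-KO replicate 2 (0.0728) or METTL3-KO replicate 3 (0.0906), with values from 0.26 to 0.32. Without replicate 3 of both groups BID passed with a smaller value of 0.18 (adjusted p = 0.00962).

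BCL2L11, which encodes BIM (chr2:111876955-111926021, plus strand), was at 18.2, 21.1 and 22.4 CPM in WT samples and at 21.2, 23.1 and 19.8 CPM in METTL3-KO samples. The lncRNA MIR4435-2HG on the opposite strand shares 10.8% of the BCL2L11 exon bases. It has no symbol in the counts, so the BCL2L11 values may include its reads. The samples of the groups were interleaved. The log2 fold change of 0.059 ± 0.10 (SE) had an adjusted p of 0.707 and a 95% interval from -0.14 to 0.26, and it was -0.024 without WT replicate 1, 0.13 without WT replicate 3 and 0.17 (adjusted p = 0.0932) without replicate 3 of both groups.

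BAD, a BH3-only protein that 14-3-3 proteins hold in the cytosol when it is phosphorylated (chr11:64037302-64052176, minus strand), was at 10.1, 10.6 and 5.72 CPM in WT samples and at 7.30, 6.14 and 8.46 CPM in METTL3-KO samples. WT replicate 3 alone made the groups overlap, since WT replicates 1 and 2 were above every METTL3-KO sample. With all libraries the log2 fold change was -0.28 ± 0.20 (SE) and the adjusted p 0.345. Without WT replicate 3 it was -0.50 (adjusted p = 0.00499), and without replicate 3 of both groups -0.61 (adjusted p = 6.84e-05), whereas after the correction for length and GC content it was -0.20 (adjusted p = 0.288). The transcript of BAD is 1157 bases long with a GC content of 66.3%, the highest of the members. The gene GPR137 on the opposite strand covers 23.7% of the BAD exon bases, and read pairs falling there were not counted for either gene if the counting ignored strand.

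BIK, the BH3-only protein of the endoplasmic reticulum (chr22:43506756-43525718, plus strand), rested on few reads, with 63, 42 and 30 counts in WT samples and 74, 60 and 69 in METTL3-KO samples. These are 2.29, 1.86 and 1.41 CPM against 2.45, 2.73 and 2.93 CPM. Every METTL3-KO sample was above every WT sample, but the log2 fold change of 0.51 ± 0.20 (SE) had an adjusted p of 0.0805 and did not pass. It passed without WT replicate 1 (0.72, adjusted p = 0.0475) and after the length and GC correction (0.55, adjusted p = 0.0288), and was 0.29 without replicate 3 of both groups (adjusted p = 0.280).

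BMF, a BH3-only protein that binds the dynein light chain DYNLL2 and is released when cells lose attachment (chr15:40380091-40401093, minus strand), gave the largest change of the 3 members that passed. It was at 45.7, 41.8 and 38.2 CPM in WT samples and at 27.996, 31.5 and 28.8 CPM in METTL3-KO samples. The lowest WT sample was well above the highest METTL3-KO sample. The lncRNA BMF-AS1 on the opposite strand shares 8.46% of the BMF exon bases. It has no symbol in the counts, so the BMF values may include its reads. BMF fell by 29.9%, from 41.9 ± 3.77 to 29.5 ± 1.85 CPM (SD, n = 3), a log2 fold change of -0.51 ± 0.090 (SE) with an adjusted p of 0.00153. The fall passed whichever of the 6 libraries was left out, with values of -0.57 to -0.44 and adjusted p from 4.42e-05 to 0.0140, and without replicate 3 of both groups it was -0.57 (adjusted p = 9.09e-08).

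To set the pro-apoptotic against the anti-apoptotic members within a sample, the levels per kilobase were summed in each class. The summed anti-apoptotic level was 181.2, 183.1 and 176.9 CPM per kb in WT samples and 159.9, 157.6 and 155.2 CPM per kb in METTL3-KO samples. All METTL3-KO samples were lower, with a mean difference of -12.6%, or -12.8% without replicate 3 of both groups. The summed pro-apoptotic level was 61.9, 62.8 and 49.4 CPM per kb in WT samples and 60.6, 59.9 and 64.9 CPM per kb in METTL3-KO samples. These ranges overlapped, and the mean difference of 6.43% became -3.39% without replicate 3 of both groups. The anti-apoptotic sum over the pro-apoptotic sum was 2.93, 2.91 and 3.58 in WT samples and 2.64, 2.63 and 2.39 in METTL3-KO samples. The ratio was lower in every METTL3-KO sample, with a mean difference of -18.6%, or -9.78% without replicate 3 of both groups. These sums are descriptions of mRNA, with no test, and most of the anti-apoptotic sum is BCL2L1 and MCL1. The effector BAX is not among the members, so the pro-apoptotic sum leaves it out. BAX was at 89.0, 79.5 and 68.7 CPM per kb in WT samples and at 68.6, 67.7 and 75.1 in METTL3-KO samples. In every sample that is more than the pro-apoptotic sum. With BAX added to that sum, the ratio of WT replicate 1 was below those of METTL3-KO replicates 1 and 2. The groups then overlapped, so the separation of the ratio holds for the members only.

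**Figure D3:**
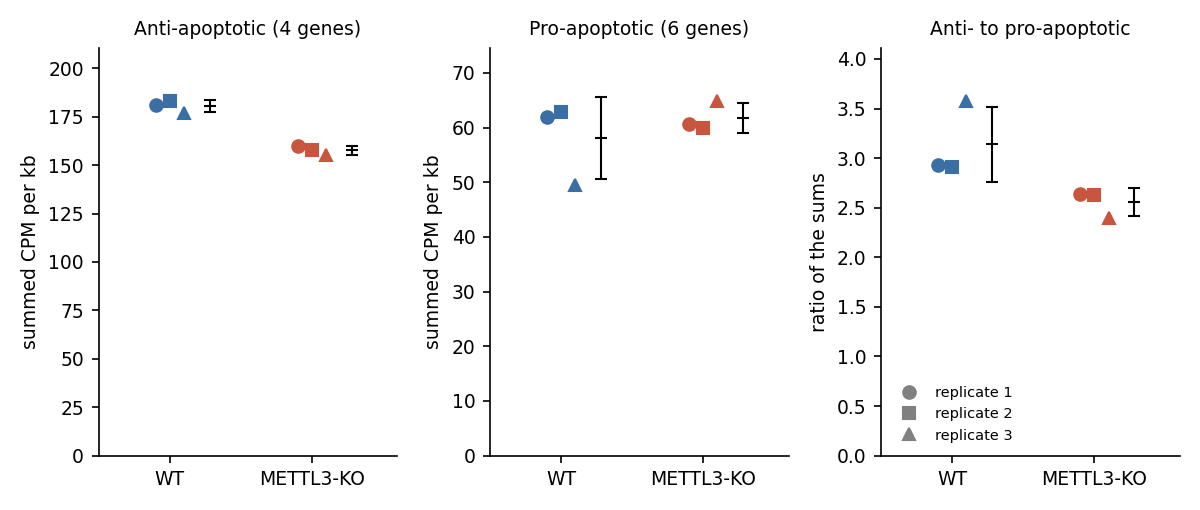
Summed level of the anti-apoptotic and of the pro-apoptotic members in each sample (CPM per kb of the longest transcript) and the ratio of the sums, with WT and METTL3-KO samples as points and group means as lines. The anti-apoptotic sum and the ratio do not overlap between the groups, and WT replicate 3 has the lowest pro-apoptotic sum, 49.4 CPM per kb. BAX is not in the pro-apoptotic sum, and with it added the ratios of the groups overlap.

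The shares within the pro-apoptotic sum shifted between members. BMF took 15.7%, 14.2% and 16.5% of it in WT samples and 9.85%, 11.2% and 9.47% in METTL3-KO samples, without overlap. BID took 32.5%, 32.2% and 33.8% in WT samples and 39.0%, 36.7% and 36.3% in METTL3-KO samples, also without overlap. BAK1 had 28.1%, 29.4% and 27.9% against 29.7%, 31.0% and 32.3%, so that all METTL3-KO samples were above all WT samples by a narrow margin. The share of BIK was also higher in every METTL3-KO sample, and those of BAD and BCL2L11 overlapped. Shares of a single sum depend on each other, so a lower share of BMF raises the rest. The CPM of BAK1 itself overlapped between the groups.

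Pairs whose proteins are known to bind were then compared as log2 ratios of CPM per kb within each sample. BAK1 to MCL1 was -1.88, -1.77 and -2.33 in WT samples and -1.69, -1.61 and -1.33 in METTL3-KO samples, a mean difference of 0.45 with no overlap. BAK1 to BCL2L1 was -2.62, -2.57 and -2.80 against -2.34, -2.28 and -2.14, a difference of 0.41 with no overlap. In both pairs the third replicates were the outermost samples of their groups. The difference for BAK1 to MCL1 was 0.28 without WT replicate 3 and 0.18 without replicate 3 of both groups, and that for BAK1 to BCL2L1 was 0.34 and 0.28. These left-out values were added after the data were seen. BCL2L11 to MCL1 went from -4.04 ± 0.13 to -3.76 ± 0.084 (SD, n = 3) and BIK to BCL2L1 from -5.77 ± 0.28 to -5.01 ± 0.12, both higher in every METTL3-KO sample. BMF to BCL2L1 went the other way, from -3.55 ± 0.087 to -3.87 ± 0.100, and was lower in every METTL3-KO sample. BAD to BCL2L1 overlapped, at -3.83 ± 0.40 and -3.87 ± 0.22, a difference of -0.043 that was -0.27 without WT replicate 3 and -0.38 without replicate 3 of both groups. The pairs share members, so the 6 ratios are not independent, and they carry no test. Each is taken over BCL2L1 or MCL1, which were themselves lower in every METTL3-KO sample. How often pairs of other genes separate was not determined. Of all single genes tested, 20.7% were lower and 20.2% higher in every METTL3-KO sample. BIK to BCL2L1 rests on 30 to 74 BIK counts per library.

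**Figure D4:**
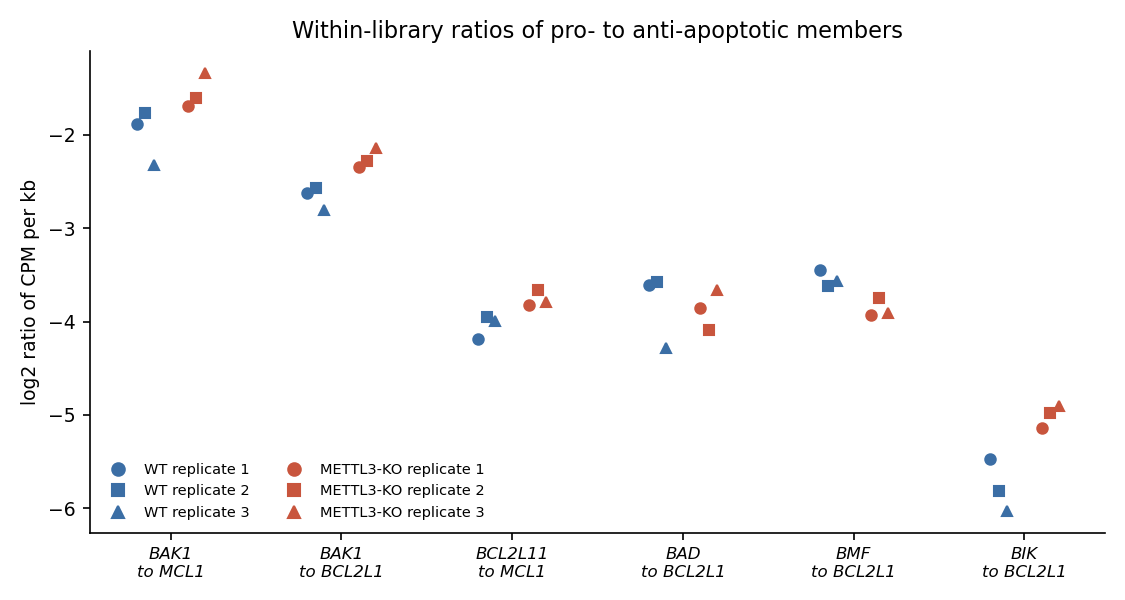
Log2 ratio of CPM per kb within each sample for 6 pairs of a pro-apoptotic member and an anti-apoptotic member, with WT and METTL3-KO samples as separate points. The ratio is higher in all METTL3-KO samples for 4 pairs, lower in all for BMF to BCL2L1, and overlaps for BAD to BCL2L1. All 6 ratios are taken over BCL2L1 or MCL1, which were themselves lower in every METTL3-KO sample.

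The members' transcripts were also described by features that did not enter their choice. The tetranucleotide GGAC, a core of the sequence in which METTL3 methylates adenosine, was counted on the sense strand of the longest transcript. It occurred from 2.81 times per kb in BCL2 to 7.36 per kb in BIK, and 8 of the 10 members were above the median of 3.56 per kb over the 17260 tested genes with a transcript length. GC content ran from 44.7% in MCL1 to 66.3% in BAD, and 7 members were above the median of 48.5%. Transcript length ran from 951 bases in BIK to 7461 bases in BCL2, and 5 members were longer than the median of 3283 bases. Of the members that passed, BMF had 5.12 GGAC per kb, MCL1 4.18 and BID 5.61. Whether this density goes with the direction of change was not tested. No m6A measurement was used here, and a match to these letters is not a methylated site.

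The other genes of the pathway were taken from 4 lists of 52 genes, of which 50 were tested. Of these, 8 were lower and 10 higher. Among all genes tested the shares were 13.4% each way, and among genes at or above the mean CPM of BIK 20.3% and 19.3%. The counts of the lists lay near those shares. In the BCL2 family outside the 10 members, 2 of 11 tested genes fell, 3 rose and 6 did not pass, with a median log2 fold change of 0.0015. BBC3, the p53 target PUMA, fell from 26.2, 21.1 and 19.6 CPM to 14.6, 15.6 and 18.9 CPM, a log2 fold change of -0.45 ± 0.13 (SE) with an adjusted p of 0.0227. BNIP3, a hypoxia-induced BH3-like protein, fell by 0.56 on the log2 scale (adjusted p = 0.0200). BCL2L14 and BCL2L15 rose by 0.74 and 0.59 (adjusted p = 0.000523 and 0.000607), and BCL2L10, with 9 to 30 counts per WT library, rose by 0.96 (adjusted p = 0.0326). The effector BAX, partner of BAK1 in pore formation, was at 120.9, 107.9 and 93.4 CPM in WT samples and at 93.1, 92.0 and 102.0 CPM in METTL3-KO samples, and its log2 fold change of -0.17 did not pass (adjusted p = 0.226). It was -0.073 without WT replicate 1 (adjusted p = 0.632), but passed without WT replicate 3 (-0.26, adjusted p = 0.00924), without replicate 3 of both groups (-0.31, adjusted p = 1.23e-05) and after the length and GC correction (-0.15, adjusted p = 0.0468). BCL2A1 with 2 counts in all and HRK with 0 were not tested. Leaving out 1 library removed the calls of BBC3 (WT replicate 1, METTL3-KO replicate 1 or 2, adjusted p up to 0.108), BNIP3 (WT replicate 1, METTL3-KO replicate 1 or 3, up to 0.107) and BCL2L10 (WT replicate 2 or any METTL3-KO replicate, up to 0.0909), and left those of BCL2L14 and BCL2L15 in place.

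Among 15 genes for binding partners and turnover of the members, 3 fell, 2 rose and 10 did not pass, with a median of 0.050. Beside them, 13.4% of all genes tested were lower and 13.4% higher. The 14-3-3 genes, whose proteins bind phosphorylated BAD, moved in both directions. YWHAB fell from 529.0, 535.2 and 508.6 CPM to 332.0, 338.5 and 349.2 CPM (log2 fold change -0.63, adjusted p = 4.70e-05), and YWHAQ fell by 0.24 (adjusted p = 0.0145). YWHAG rose from 320.1, 322.7 and 355.5 CPM to 503.6, 493.8 and 451.0 CPM (0.54, adjusted p = 0.000320). MTCH2, the mitochondrial receptor of truncated BID, fell by 0.27 (adjusted p = 0.0215), and FBXW7, a ubiquitin ligase subunit that recognises MCL1, rose by 0.27 (adjusted p = 0.0339). The calls of YWHAB and YWHAG held with any 1 library left out. Those of YWHAQ and MTCH2 were lost without replicate 1 or 2 of either group (adjusted p up to 0.0798 and 0.104), and that of FBXW7 without any single library other than WT replicate 3 (up to 0.126).

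Of 13 genes that act after the mitochondrion, 1 fell, 2 rose and 10 did not pass, with a median of 0.063. Beside them, 13.4% of all genes tested were lower and 13.4% higher. BIRC3, an inhibitor of apoptosis protein and NF-kB target, rose from 5.21, 6.59 and 8.39 CPM to 19.3, 19.2 and 20.2 CPM (1.55, adjusted p = 2.28e-05). Its relative BIRC2 rose by 0.22 (adjusted p = 0.0359), and ENDOG, a mitochondrial nuclease, fell by 0.94 (adjusted p = 0.0250). The BIRC2 call was lost without WT replicate 1 or any METTL3-KO replicate (adjusted p up to 0.129) and the ENDOG call without WT replicate 1 or METTL3-KO replicate 1 or 2 (up to 0.122), and the BIRC3 call held with any 1 library left out.

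In the death receptor arm, which meets the mitochondrial arm at BID, 2 of 11 genes fell, 3 rose and 6 did not pass, with a median of 0.19. Beside them, 13.4% of all genes tested were lower and 13.4% higher. TNFSF10, the ligand TRAIL, rose from 11.98, 11.5 and 8.02 CPM to 16.9, 19.2 and 21.2 CPM (log2 fold change 0.85, adjusted p = 0.00121). Its receptor TNFRSF10B fell from 59.1, 56.8 and 66.5 CPM to 39.0, 41.6 and 37.1 CPM (-0.63, adjusted p = 0.000284), and TNFRSF1A fell by 0.29 (adjusted p = 0.0216). CASP8, the caspase that cleaves BID, rose by 0.30 (adjusted p = 0.0128) and CASP10 by 0.31 (adjusted p = 0.0345). The CASP8 call was lost without WT replicate 1 or METTL3-KO replicate 1 (adjusted p up to 0.0669), and the TNFRSF1A and CASP10 calls without replicate 1 or 2 of either group (up to 0.107 and 0.133). TNFSF10 and TNFRSF10B passed with any 1 library left out.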

How the data were processed

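RNA-seq of HCT116 cells was analysed from 3 WT and 3 METTL3-KO samples. The authors mapped reads to hg19 with TopHat (version 2.0.11 per the submitters' processing notes), with an Ensembl GRCh37 transcript index, and obtained counts with htseq-count (union mode). These raw counts, 1 value for each gene symbol and sample, are the deposited values. The counters of unassigned reads, 28.2% to 30.7% of each file's total, were left out. The library kit named in the labels does not mark strand.

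A gene was tested where at least 1 condition had 5 or more counts in total. edgeR 4.0.16 in R 4.3.3 gave quasi-likelihood tests with TMM normalization, two-sided, with Benjamini-Hochberg adjustment over all genes tested. The SE is the size of the log2 fold change divided by the square root of F, and 95% intervals are 1.96 SE to each side. Floors cover counting error only. Lengths, GC content and positions came from GENCODE v44 on GRCh37, which 35700 of 56638 symbols matched, 1828 of them by an older symbol. The length and GC correction fitted splines with 5 degrees of freedom per sample, using genes whose mean log2 CPM exceeded 3. The other alternatives were DESeq2 1.42.0, RLE normalization, other filters, a replicate block and left-out libraries. The procedures were tested on simulated data.

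The members and lists were chosen with earlier results of these data known. Named genes are METTL3, every member, other family genes that pass, and up to 5 passing genes with the smallest adjusted p per other list. BAX, BCL2A1 and HRK were named in addition, after their values were seen. Some genes of the pathway lists are not reported here.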

Additional observations from a re-analysis of the deposited data

How the results depend on the processing

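No member that passed changed direction under any alternative, and BMF and METTL3 passed under all of them. Leaving out 1 library gave log2 fold changes of -2.08 to -2.005 for METTL3, -0.57 to -0.44 for BMF, -0.25 to -0.18 for MCL1, 0.20 to 0.33 for BID, -0.24 to -0.14 for BCL2L1, -0.50 to -0.13 for BAD, 0.36 to 0.72 for BIK, 0.10 to 0.30 for BAK1, -0.057 to 0.0063 for BCL2L2 and -0.024 to 0.13 for BCL2L11, with the reversals of the last pair without METTL3-KO replicate 3 and without WT replicate 1. It gave 1 to 4 members lower (4 without WT replicate 3, and 1 without any other) and 0 to 1 higher (0 without any METTL3-KO replicate), 2 to 10 lower and 5 to 16 higher genes of the other lists (8 and 10 with all libraries), 1975 to 3820 lower genes among all tested, and an anti-apoptotic median of -0.22 to -0.14. Without WT replicate 1 or 2 BCL2 was not tested and that median leaves it out. The value of -0.14, without WT replicate 2, is that of BCL2L1. With replicate 3 of both groups left out, BCL2L1 at -0.25 (adjusted p = 1.82e-06) and BAD at -0.61 passed, BCL2L2 turned to 0.029, and the counts were 4 members lower, 14 lower and 19 higher genes of the other lists, and 4810 lower and 4573 higher genes in all, against 3007 and 3012. With the length and GC correction BCL2L1 at -0.21 (adjusted p = 0.00328), BAK1 at 0.21 and BIK at 0.55 passed, and 3 members and 19 genes of the other lists were higher. With filterByExpr BCL2L1 at -0.19 passed (adjusted p = 0.0494). Per kilobase of all exons, 8 of 10 members kept their rank in WT cells. The cause of these shifts was not tested. Same-numbered deviations correlated at -0.586, -0.390 and -0.784 over 10336 genes. These deviations from group means run with transcript length, so the values cannot show whether the replicate numbers pair the samples. The deposited data carry other numbers, by which WT replicates 2 and 3 are 3 and 4, and the pairs sharing those numbers correlated at -0.586 and 0.632. The label numbers were used, and the block rests on them, whereas the libraries called replicate 3 were left out because they stand apart. That setting is not a cleaner check. In the libraries it keeps, the fitted length and GC offsets of BAD, BIK, BAK1, BID, BCL2L1 and BCL2L2 were positive in WT and negative in METTL3-KO. They were largest for BAD, BIK and BAK1. Those of BCL2 and BCL2L11 ran the other way. For all of these members, offset and group cannot be told apart in that setting. The offsets of MCL1 and BMF were negative in WT and of either sign in METTL3-KO. With the replicate block MCL1 at -0.23 (adjusted p = 0.168) and BID at 0.28 (adjusted p = 0.133) did not pass, 1 member was lower and 0 were higher, the other lists had 2 lower and 5 higher, and all genes 1582 and 1694. With the block and the length and GC correction together BCL2L1 passed at -0.21 (adjusted p = 0.0287). Depth limits BCL2, and BIK at 30 to 74 counts.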
